A study of Mus musculus with 64 samples.

Results

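The paired Ig-like and Lair receptors described here are 6 mouse genes, Lilra6, Pira2, Lilrb3, Lilrb4a, Lilra5 and Lair1, out of 38924 genes listed for LSK cells, the longest of the deposited tables. They were selected on their symbols, with their levels in Smarcd2 KO libraries of LSK and CMP cells already known. In those 2 populations the KO values of the members are therefore a description. Whether a member passed or did not pass there is printed, but is not read as evidence. Of the 6 genes, 5 had a row in the LSK and GMP tables and 3 in the CMP and MEP tables.

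RNA was measured by Smart-seq2 in progenitors sorted from livers of C57BL/6 fetuses that were Smarcd2 -/- (KO), Smarcd2 +/- (HET) or Smarcd2 +/+ (WT). The labels give an age of 13 to 14 days post coitum, except for 1 CMP HET library at 14.5 days. LSK cells, the lineage-negative Sca-1 and c-Kit positive fraction with stem and multipotent cells, gave 9 KO, 9 HET and 5 WT libraries. Common myeloid progenitors (CMP) gave 4 KO, 7 HET and 3 WT libraries, granulocyte-monocyte progenitors (GMP) 3 KO, 7 HET and 3 WT, and megakaryocyte-erythroid progenitors (MEP) 4 KO, 7 HET and 3 WT. Smarcd2 encodes a subunit of the BAF chromatin remodelling complex. The sources used here do not give how the mutant allele was made. They also do not say whether libraries of a group came from different fetuses; p-values here cover the spread between libraries, which may be technical.

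Each LSK library held between 4327582 and 24069833 reads assigned to genes; the ranges were 1577073 to 8092644 in CMP, 1006090 to 6300070 in GMP and 1488328 to 5646315 in MEP. Smarcd2 itself had 0 to 1.94 CPM, the read count relative to the TMM-scaled library size, over all KO libraries, 8.77 to 79.4 CPM in HET libraries and 49.4 to 131.9 CPM in WT libraries. Defining markers followed the gates: Kit was at 524 CPM or more in every LSK library, Fcgr3 had its highest values in GMP and Klf1 in MEP. The CMP and GMP HET libraries numbered 8 stood apart, with scaling factors of 0.58 and 0.30 and, in GMP, reads in 27233 genes against 14184 to 19509 in the other GMP libraries. Results that rest on them are given with and without them.

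Paired immunoglobulin-like receptors are surface proteins of myeloid and B cells that bind MHC class I molecules. The A-type receptors (PIR-A, here Lilra6 and Pira2) have short tails and activate cells through the adaptor Fcer1g, whereas the B-type receptor (PIR-B, here Lilrb3, listed as Pirb in GENCODE) carries inhibitory ITIM motifs that recruit the phosphatase Ptpn6. Lair1 encodes an ITIM receptor for collagens, Lilrb4a an ITIM receptor of mast cells and macrophages, and Lilra5 an activating receptor.

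Lilra6, Pira2, Lilrb3 and Lair1 all lie on the minus strand of chromosome 7 in the leukocyte receptor complex (GRCm38), at chr7:3908280-3915503, chr7:3836812-3845051, chr7:3711409-3720391 and chr7:4003402-4063204. Lilra5 lies on the plus strand at chr7:4237754-4243463. The promoters of 4 members, 250 bases before to 50 after the start site, are shown. The levels of the 3 PIR genes went together across LSK libraries, while those of Lair1 were less like them. These include the KO libraries whose levels were known when the members were chosen, and near-identical genes may share reads. Nothing about the promoters is read from that likeness. The promoters are RefSeq sequences on GRCm38.p6, at chr7:3915452-3915751, chr7:3845002-3845301, chr7:3720333-3720632 and chr7:4063155-4063454, all on the minus strand. Capitals mark GAGGAA, a core of sites for the myeloid factor PU.1, on either strand.
Lilra6: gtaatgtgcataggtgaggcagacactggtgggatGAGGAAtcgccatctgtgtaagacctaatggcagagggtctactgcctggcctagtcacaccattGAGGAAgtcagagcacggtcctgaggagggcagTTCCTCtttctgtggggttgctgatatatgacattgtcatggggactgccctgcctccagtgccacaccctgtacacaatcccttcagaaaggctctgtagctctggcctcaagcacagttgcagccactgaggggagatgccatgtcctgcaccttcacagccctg
Pira2: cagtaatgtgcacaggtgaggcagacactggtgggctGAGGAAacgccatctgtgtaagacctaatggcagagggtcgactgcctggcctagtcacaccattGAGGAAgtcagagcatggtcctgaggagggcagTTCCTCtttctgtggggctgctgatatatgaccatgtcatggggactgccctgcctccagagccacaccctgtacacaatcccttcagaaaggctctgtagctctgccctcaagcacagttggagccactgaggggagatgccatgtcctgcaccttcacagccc
Lilrb3: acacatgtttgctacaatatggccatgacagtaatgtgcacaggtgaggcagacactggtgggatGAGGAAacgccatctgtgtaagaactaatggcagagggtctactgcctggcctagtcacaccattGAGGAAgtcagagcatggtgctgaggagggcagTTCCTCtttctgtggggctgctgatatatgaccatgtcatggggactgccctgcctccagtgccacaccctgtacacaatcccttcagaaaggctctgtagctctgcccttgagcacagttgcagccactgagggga
Lair1: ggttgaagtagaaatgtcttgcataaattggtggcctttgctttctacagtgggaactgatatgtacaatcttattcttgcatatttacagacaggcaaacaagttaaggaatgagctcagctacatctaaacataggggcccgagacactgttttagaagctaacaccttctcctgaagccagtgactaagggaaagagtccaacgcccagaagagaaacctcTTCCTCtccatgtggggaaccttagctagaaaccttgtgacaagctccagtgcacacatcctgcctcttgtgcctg

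The 3 PIR promoters are near copies. Lilra6 and Pira2 were identical at 287 of 298 aligned bases (96.3%), Pira2 and Lilrb3 at 264 of 272 (97.1%) and Lilra6 and Lilrb3 at 259 of 270 (95.9%). Lair1 had 57.4% to 61.4% identity with them. Each PIR promoter held GAGGAA 3 times, beginning 215, 150 and 117 bases before the start in Lilra6, 213, 148 and 115 in Pira2, and 185, 120 and 87 in Lilrb3. Lair1 and Lilra5 each held it 1 time, at 26 and 128 bases before the start. Among all 32851 RefSeq promoters of that length, 28.3% held it on either strand. The other motifs searched on both strands were TGTGGT for RUNX factors, TTGCNNAA for C/EBP factors, the interferon response element, AGATAA for the erythroid factors of the Gata family, and TGANTCA for AP-1, which occurred in 16.8%, 10.8%, 3.44%, 11.2% and 7.81% of promoters. None of these was in the 3 PIR windows. Lair1 held TTGCNNAA 1 time, and Lilra5 held TTGCNNAA 1 time and TGTGGT 1 time. These matches describe letters only.

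The near identity extends into the transcripts and limits how reads can be assigned. Of the distinct 50-base words in GENCODE transcripts, 7.05% of those of Pira2 were found in no other gene, against 66.0% for Lilrb3, 68.7% for Lilra6, 98.5% for Lair1 and 100% for Lilra5. Most of the overlap of Pira2 was with Gm15922, a polymorphic pseudogene of the same cluster, which held 82.6% of its words. The values of Pira2 are therefore uncertain, and the read length is not given in the sources used here.

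In LSK cells the PIR genes stood higher in KO libraries than in WT libraries, with mean log2 fold changes between 1.503 and 1.88. Lilrb3, the inhibitory receptor, ran from 38.0 to 107.9 CPM with a median of 73.1 in KO libraries, and from 14.5 to 55.2 with a median of 24.7 in HET libraries. The WT libraries were at 31.0, 39.9, 19.51, 16.9 and 18.2 CPM. Of the 9 KO libraries, 8 lay above every WT library and 6 above every HET library, and the log2 fold change was 1.503 (SE 0.30) against WT and 1.33 (SE 0.24) against HET.

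Pira2, an activating receptor, ran from 17.0 to 84.1 CPM with a median of 48.4 in KO libraries, and from 5.96 to 30.6 with a median of 10.04 in HET libraries. The WT libraries were at 13.3, 18.5, 14.5, 11.6 and 7.43 CPM. Again 8 of 9 KO libraries lay above every WT library, and 7 above every HET library. The log2 fold change was 1.88 (SE 0.40) against WT and 1.81 (SE 0.31) against HET.

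Lilra6, the other A-type gene, was the least abundant of the PIR genes. It ran from 3.85 to 11.5 CPM with a median of 7.54 in KO libraries, and from 0.606 to 4.37 with a median of 1.72 in HET libraries. The WT libraries were at 2.18, 3.83, 3.22, 1.56 and 0.719 CPM. KO and WT libraries did not overlap, although the lowest KO and the highest WT value differed by little, and 8 of 9 KO libraries lay above every HET library. The log2 fold change was 1.74 (SE 0.40) against WT and 1.81 (SE 0.32) against HET.

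**Figure D1:**
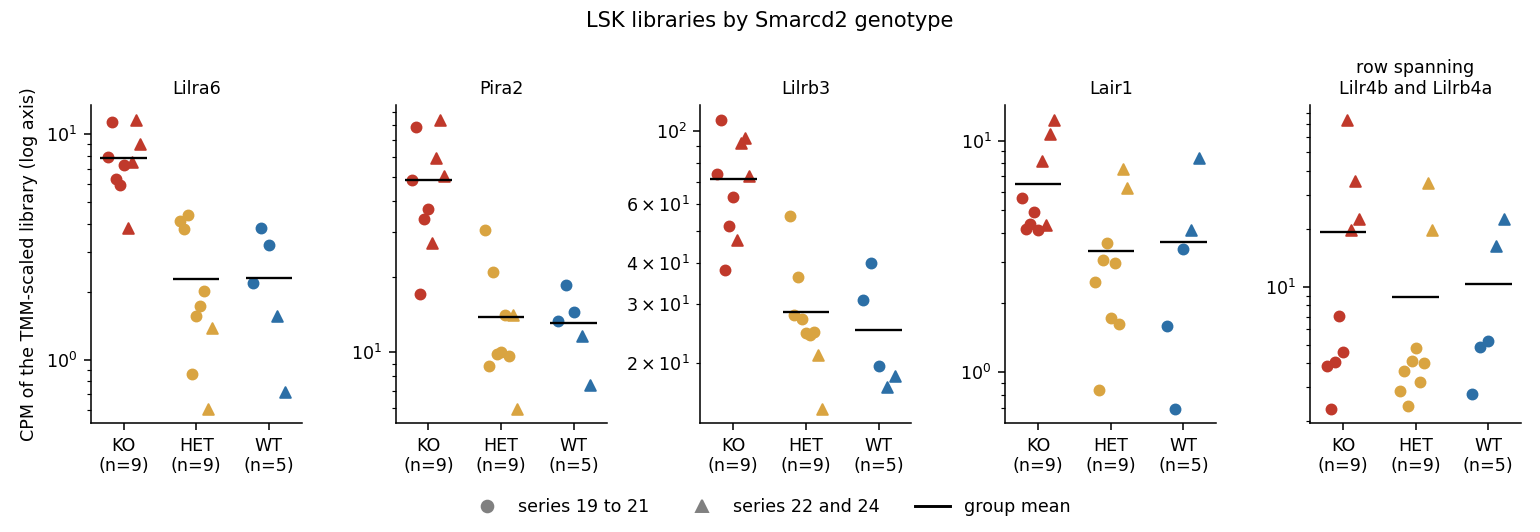
CPM on a log axis in each LSK library for Lilra6, Pira2, Lilrb3, Lair1 and the row spanning Lilr4b and Lilrb4a, with KO, HET and WT from left to right. Circles are libraries of series 19 to 21, triangles those of series 22 and 24, and lines are group means; most KO points of the PIR genes lie above the HET and WT points, with overlap except for Lilra6 in KO against WT, and the last row separates by series.

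Lair1 ran from 4.12 to 12.3 CPM with a median of 4.90 in KO libraries, and from 0.842 to 7.50 with a median of 2.95 in HET libraries. The WT libraries were at 1.59, 0.697, 3.42, 4.12 and 8.39 CPM. The groups overlapped: 2 of 9 KO libraries lay above every WT library and 3 above every HET library. The log2 fold change was 0.86 (SE 0.48) against WT and 0.94 (SE 0.38) against HET.

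Taking the 4 members that passed the count filter, 3 were higher at an adjusted p under 0.05 in KO against WT, and 3 in KO against HET, with Lair1 the exception in both. Of all 13878 genes tested, 9.53% were higher in KO against WT and 5.93% in KO against HET. The members were chosen with these contrasts in view, so nothing is read from their share. Their median log2 fold change was 1.62 against WT and 1.57 against HET, while that of all genes tested was 0.01 and -0.0012. With the reads of Lilra6, Pira2 and Lilrb3 summed into 1 row, the log2 fold change was 1.65 (SE 0.33) against WT and 1.52 (SE 0.26) against HET. The sum does not restore shared reads that the counting may have dropped, and it leaves out reads assigned to Gm15922.

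Markers of dendritic cells and antigen presentation moved with the PIR genes in LSK. Of 8 tested, 6 were higher in KO against WT and 0 were lower, with a median log2 fold change of 1.16; over all genes 9.53% were higher and 9.28% lower. The sum of the 15 listed genes was 576 to 863 CPM in KO, 468 to 646 in HET and 412 to 545 in WT libraries, so that KO and WT did not overlap. H2-DMa, an MHC class II chaperone, averaged 46.1 CPM in KO and 21.35 CPM in WT libraries, Itgax, encoding CD11c, 11.7 CPM in KO and 3.81 CPM in WT, and H2-Ab1, an MHC class II chain, 8.98 CPM in KO and 3.56 CPM in WT. Flt3, which multipotent progenitors also express, averaged 617 CPM in KO and 423 CPM in WT libraries, while the dendritic factor Zbtb46 was at 4.42 CPM in KO and 4.58 CPM in WT and did not pass. Zbtb46 was named after its value was seen. Of 12 lymphoid markers tested, 3 were higher and 0 lower, beside the same shares of all genes. The part of such cells in the PIR values was not tested.

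The libraries carry a series number in their titles, 19 to 24 in LSK, whose meaning is not given in the sources used here. Series 19, 21, 22 and 24 held both KO and WT libraries, and of these only series 21 held more than 1 WT library. Within each of these 4 series, every KO library lay above every WT library for Lilra6, Pira2, Lilrb3 and also Lair1. For Lair1 the KO means and WT means were 4.91 and 1.59 CPM in series 19, 4.51 and 2.06 in series 21, 7.72 and 4.12 in series 22, and 12.3 and 8.39 in series 24. The 3 PIR genes also lay above every HET library of their series in all 5 series with both genotypes. Lair1 did so in 4 of 5. The share of all genes that separate in these ways, or over all LSK libraries, was not counted, and nothing is read from these separations. With the series number as a covariate, Lair1 was at 1.01 against WT and 0.79 against HET on the log2 scale, and 4 of 4 members passed. In that fit 21.8% of all genes passed in either direction against WT and 14.8% against HET, and nothing is read from the members' share.

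The PIR rows outside the 6 members gave similar values. Gm14548 averaged 13.6 ± 5.20 CPM in KO libraries and 4.29 ± 2.23 CPM in WT libraries (SD, n = 9 and 5). Gm15448 ran from 6.61 to 16.2 CPM in KO libraries and from 2.62 to 4.53 in WT libraries. Gm15922 ran from 10.4 to 68.2 CPM in KO libraries and from 2.87 to 10.8 in WT libraries. Their log2 fold changes were 1.66 (SE 0.33), 1.76 (SE 0.35) and 2.06 (SE 0.48). Since these rows share sequence with the members, they are not separate evidence.

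Per kilobase of exon, Lilrb3 and Pira2 were the most abundant members in LSK cells. Lilrb3 averaged 15.97 ± 5.31 CPM per kb in KO, 6.36 ± 2.59 in HET and 5.61 ± 2.24 in WT libraries (SD, n = 9, 9 and 5). Pira2 averaged 14.0 ± 6.52, 3.97 ± 2.20 and 3.77 ± 1.17, Lilra6 2.58 ± 0.812, 0.743 ± 0.471 and 0.755 ± 0.410, and Lair1 0.871 ± 0.416, 0.445 ± 0.294 and 0.487 ± 0.399 CPM per kb in the same order of genotypes. The ratio of the activating Pira2 to the inhibitory Lilrb3, per length, had a median of 0.845 in KO libraries (0.579 to 1.14), 0.529 in HET libraries (0.409 to 0.859) and 0.598 in WT libraries (0.527 to 0.959). These ranges overlapped.

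Lilra5, an activating receptor, was close to the detection floor in LSK cells. It had 8 reads in 2 of 9 KO libraries, 33 reads in 5 of 9 HET libraries and 8 reads in 3 of 5 WT libraries, and did not pass the filter. No comparison was made for it.

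Lilrb4a had no row of its own in the files. A row with the identifier ENSMUSG00000062593, which GENCODE names Gm49339, spans Lilr4b and Lilrb4a at chr10:51480612-51496613 on the plus strand, and 95.2% of its 50-base words occur in Lilrb4a transcripts and 38.4% in Lilr4b transcripts. It is given here under its position and is not counted as a member. In LSK it ran from 2.33 to 73.6 CPM with a median of 7.08 in KO libraries, and from 2.39 to 34.4 with a median of 4.02 in HET libraries. The WT libraries were at 2.78, 4.88, 5.23, 16.3 and 22.52 CPM. The genotypes overlapped throughout, with a log2 fold change of 0.90 (SE 0.88) in KO against WT.

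That row separated by series, not by genotype. The 8 libraries of series 22 and 24 held 16.3 to 73.6 CPM and the 15 libraries of series 19 to 21 held 2.33 to 7.08 CPM. Lair1 was also higher there, at 4.12 to 12.3 CPM in series 22 and 24 and 0.697 to 5.66 CPM in series 19 to 21. The PIR genes covered the same range in both: Lilrb3 ran from 14.5 to 95.4 CPM in series 22 and 24, and from 19.51 to 107.9 CPM in series 19 to 21.

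A list of 24 monocyte and macrophage markers moved with that split. Its summed level was 900 to 3255 CPM in series 22 and 24 and 407 to 1060 CPM in series 19 to 21. By genotype the sum overlapped, at 407 to 3097 CPM in KO, 489 to 3255 in HET and 508 to 2298 in WT libraries. The defining macrophage genes Adgre1 and C1qa had reads in every LSK library, with 6.73 to 272 and 1.47 to 79.6 CPM in KO, and 11.5 to 151 and 6.75 to 55.1 CPM in WT. Of the list's 20 tested genes, 0 were higher and 1 was lower in KO against WT by edgeR, with 2 at an unadjusted p under 0.05. The part of these cells in the levels of Lair1 and of the Lilrb4a row was not tested. In bulk libraries, fewer cells of a type and less RNA per cell cannot be told apart.

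**Figure D2:**
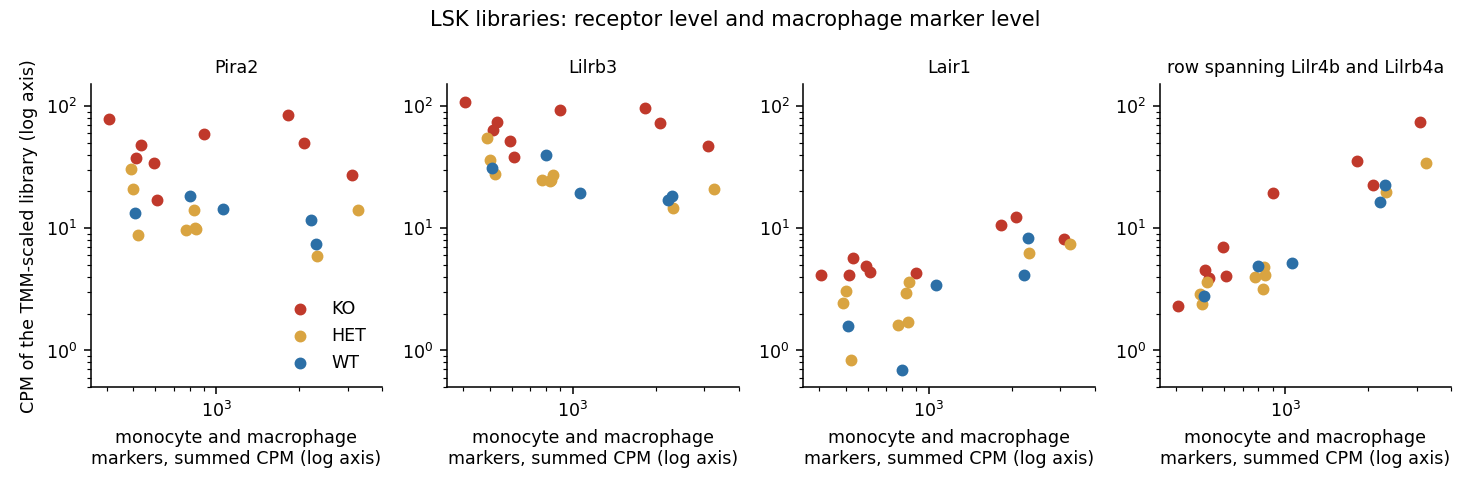
CPM of Pira2, Lilrb3, Lair1 and the row spanning Lilr4b and Lilrb4a against the summed CPM of 24 monocyte and macrophage markers, 1 point per LSK library, both axes logarithmic and colours giving KO, HET and WT. The last row climbs with the marker sum in all genotypes, while for Pira2 and Lilrb3 most KO points lie above the others at low and high sums.

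Correlations over the 23 LSK libraries described the same 2 patterns; the points share libraries and genotype, and no p is given. Pira2 and Lilrb3 had a Pearson r of 0.95, Lilra6 and Lilrb3 of 0.88 and Lilra6 and Pira2 of 0.86 on log2 CPM. Lair1 had an r of 0.14 to 0.38 with these 3 genes and of 0.69 with the Lilrb4a row. Among named genes outside the family, Pecam1, an adhesion receptor with ITIMs, had an r of 0.95 with Lilrb3 and 0.91 with Pira2, and Gsn, the actin-severing protein gelsolin, 0.92 and 0.94. Ppp1r16b followed at 0.91 and 0.89. For Lilra6 the closest were Prkcq, a protein kinase C, at 0.89, Mterf2 at 0.88 and Art4 at 0.87. For Lair1 they were the lysosomal gene Psap at 0.90, the ITIM receptor Cd300a at 0.86 and Pld3 at 0.86. The Lilrb4a row went with Lpl, Hpgds and Rnase4 at 0.95, 0.95 and 0.93.

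Between HET and WT libraries no member passed the test in LSK cells. The log2 fold changes of HET against WT were -0.07 (SE 0.41) for Lilra6, 0.07 (SE 0.39) for Pira2, 0.17 (SE 0.30) for Lilrb3 and -0.08 (SE 0.48) for Lair1. By edgeR, 0 of 4 passed, 0 had an unadjusted p under 0.05, and DESeq2 also called 0. Of all genes tested, 0.00721% were called in this comparison.

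In CMP, Lair1 and Lilra6 had KO libraries above every WT library, and both overlapped HET libraries. How many of all genes separate 4 KO from 3 WT libraries in this way was not counted. Lair1 was at 9.39, 7.81, 8.28 and 11.2 CPM in the 4 KO libraries, and ran from 1.11 to 7.86 with a median of 3.46 in HET libraries. The 3 WT libraries were at 2.07, 1.10 and 2.41 CPM. All KO libraries lay above all WT libraries, and 3 of 4 above every HET library. The log2 fold change was 2.29 (SE 0.51) against WT and 1.54 (SE 0.38) against HET.

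Lilra6 was at 2.73, 3.79, 3.01 and 3.68 CPM in CMP KO libraries and ran from 1.11 to 20.2 with a median of 1.74 in HET libraries. The WT libraries were at 0.259, 1.38 and 2.06 CPM, from 2, 5 and 6 reads. KO and WT did not overlap, yet the log2 fold change of 1.58 (SE 0.98) did not pass. Lilrb3 was at 2.42, 3.57, 6.02 and 8.09 CPM in KO libraries, ran from 2.49 to 22.46 in HET libraries and was at 2.59, 2.75 and 3.78 CPM in WT libraries. Its groups overlapped, and the log2 fold change was 0.76 (SE 0.62). The highest HET value of both genes came from HET library 8, at 18 and 20 reads. Against HET, Lilra6 and Lilrb3 were at -0.10 and -0.21 with that library, and at 0.70 and 0.22 without it.

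Of the 3 members tested in CMP, 1 was higher in KO against WT and 1 in KO against HET, and it was Lair1 both times. The background was 1.02% and 1.38% of 11658 genes higher. As in LSK, the members were chosen with these contrasts known and nothing is read from the share. The KO libraries came from series M32, M33 and M34, and M34 held 2 KO libraries only. Within M32 the KO library had 9.39 CPM of Lair1 and the WT libraries 2.07 and 1.10, and within M33 the KO library had 7.81 and the WT library 2.41. With the series as a covariate the log2 fold change against WT was 2.15 and Lair1 no longer passed. It also lost the call without any 1 of KO 11, KO 13, KO 15, WT 2, WT 5 or WT 12, at log2 values between 2.05 and 2.45 over all alternatives. Against HET the call was lost without any 1 of the 4 KO libraries, of HET 1, 3, 4, 7, 9 or 10, or of WT 2 or 12, at log2 values between 1.38 and 1.71. Without HET library 8 Lair1 passed in both comparisons, at 2.28 against WT and 1.71 against HET.

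The monocyte and macrophage list had 18 rows in CMP, summing to 1327 to 1995 CPM in KO and 1432 to 2085 CPM in WT libraries. Of 15 tested, 0 were higher and 3 lower in KO against WT, with a median log2 fold change of -0.36. Of its defining genes, C1qa had no row, and Adgre1 was at 28.6 to 61.0 CPM in KO, 15.2 to 23.7 in HET and 16.8 to 27.5 in WT libraries. The eosinophil marker Prg2 was at 0.669 to 242.8 CPM in KO and 1.17 to 41.9 CPM in WT libraries. The other defining eosinophil gene, Epx, was at 0 to 1.51 CPM in KO and 0.130 to 5.84 CPM in WT libraries. The 13 neutrophil granule and maturation genes summed to 2886 to 4204 CPM in KO and 3781 to 4940 CPM in WT libraries. Of 11 tested, 0 were higher and 5 lower in KO against WT, beside 1.02% and 0.823% of all genes. Their median log2 fold change was -2.53. The 11 dendritic cell and antigen presentation markers summed to 198 to 350 CPM in KO, 121 to 220 CPM in HET and 97.8 to 138 CPM in WT libraries, and 2 of 7 tested were higher. The 10 megakaryocyte markers summed to 470 to 566 CPM in KO, 209 to 459 CPM in HET and 270 to 382 CPM in WT libraries, and 0 of 10 passed by edgeR, with 4 at an unadjusted p under 0.05. The sums of these last 2 lists did not overlap between KO and WT libraries. The part of any of these markers' cells in the Lair1 values was not tested. The row spanning Lilr4b and Lilrb4a averaged 10.3 ± 4.64 CPM in KO, 7.54 ± 2.66 in HET and 9.91 ± 2.56 in WT libraries (SD, n = 4, 7 and 3), with a log2 fold change of 0.08 against WT.

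HET against WT in CMP called 0 of 3 members by edgeR, 0 with an unadjusted p under 0.05 and 0 by DESeq2. The log2 fold changes were 1.68 (SE 0.94) for Lilra6, 0.97 (SE 0.58) for Lilrb3 and 0.75 (SE 0.48) for Lair1. Without HET library 8 they were 0.99, 0.55 and 0.56. Over all genes this comparison called 0% of 11658, with 296 genes at an unadjusted p under 0.05 and 0 called by DESeq2.

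**Figure D3:**
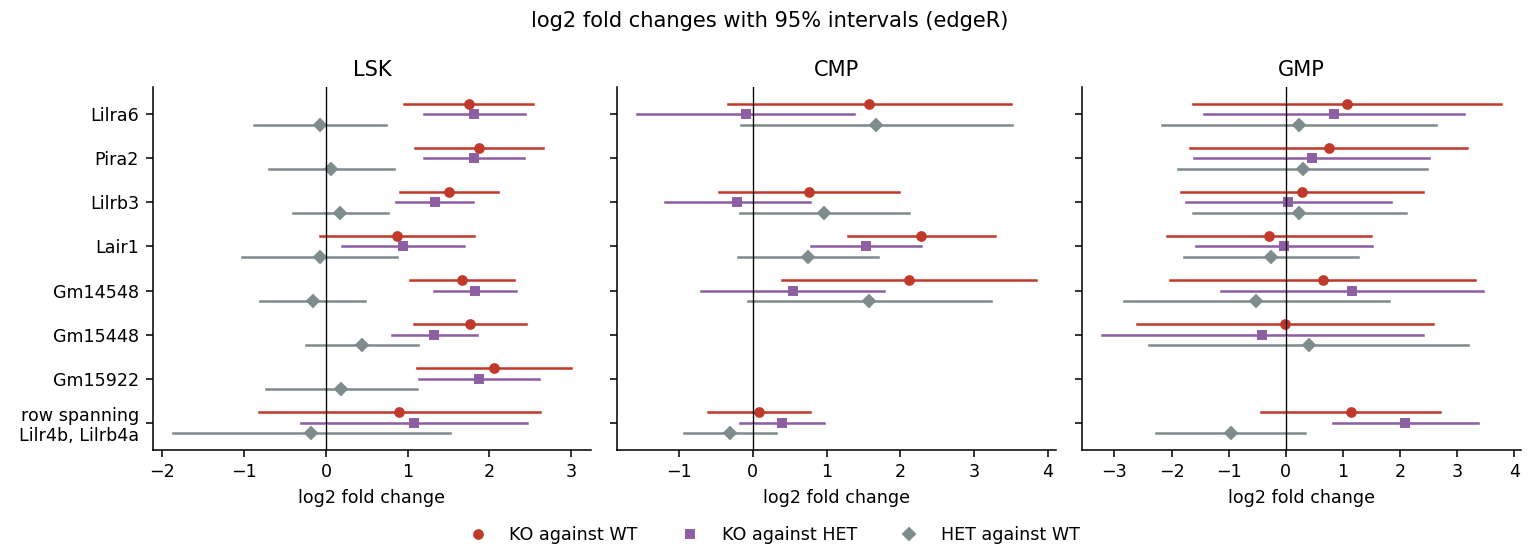
Log2 fold changes with 95% intervals from edgeR for the members and their relatives in LSK, CMP and GMP, for KO against WT, KO against HET and HET against WT; rows without a point did not pass the filter or had no row. The PIR rows lie between 1 and 2 or just above in LSK KO, while intervals in GMP cross 0 for every member.

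In GMP the 3 KO libraries differed widely among themselves, and Lilra6 and Lilrb3 ran in the opposite order to Lair1. Lilrb3 was at 10.3, 9.55 and 1.13 CPM in KO libraries 6, 13 and 15, and at 1.61, 2.94 and 12.1 CPM in WT libraries 2, 5 and 12. Lilra6 was at 9.09, 8.84 and 0.564 CPM in KO and 0, 1.47 and 6.70 in WT. Lair1 had the reverse order in KO, at 0.395, 4.95 and 18.98 CPM, beside 8.88, 9.57 and 11.5 CPM in WT. The groups overlapped for all of these genes.

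Pira2 was at 2.17, 7.07 and 1.503 CPM in GMP KO libraries and at 0.807, 0.982 and 4.17 in WT libraries. Lilra5 had reads in 1 of 3 KO libraries, 4 of 7 HET libraries and 1 of 3 WT libraries, with 7, 9 and 18 reads in all, and did not pass the filter. The HET libraries ran from 2.63 to 29.2 CPM for Lilrb3, 0.489 to 17.5 for Lilra6, 0.736 to 14.6 for Pira2 and 3.91 to 17.5 for Lair1. The top value was from HET library 8 each time, on 5 to 10 reads.

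Of the 4 members tested, 0 passed in KO against WT by edgeR, 0 had an unadjusted p under 0.05 and 0 were called by DESeq2. The log2 fold changes were 1.07 (SE 1.38) for Lilra6, 0.75 (SE 1.23) for Pira2, 0.28 (SE 1.08) for Lilrb3 and -0.30 (SE 0.91) for Lair1, with edgeR adjusted p between 0.880 and 0.963. The background in this comparison was 0.0409% of 12239 genes higher. KO libraries 13 and 15 came from series M34, which held no HET or WT library, so that only KO library 6 shared a series, M32, with WT. Within M32, Lilra6 was at 9.09 CPM in KO and a mean of 0.736 CPM in WT libraries, and Lair1 at 0.395 CPM in KO and a mean of 9.23 CPM in WT libraries. With the series as a covariate, the log2 fold changes were 3.26 for Lilra6, 1.2999 for Pira2, 2.04 for Lilrb3 and -4.35 for Lair1. With the share of spike-in reads as a covariate, chosen after seeing the data, they were 3.51, 3.36, 2.36 and 0.58, so the sign of Lair1 turned. In both fits 0 of 4 members passed by edgeR. KO against HET also called 0 of 4 by edgeR, 0 at an unadjusted p under 0.05 and 0 by DESeq2, against 0.0735% of genes higher. There the log2 fold changes were 0.84 for Lilra6, 0.45 for Pira2, 0.04 for Lilrb3 and -0.03 for Lair1, and without HET library 8 they were 1.58, 1.24, 0.72 and 0.20, with none passing. The 95% intervals of KO against WT, such as -1.63 to 3.76 for Lilra6, include changes as large as those seen in LSK.

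HET against WT in GMP called 0 of 4 members by edgeR, 0 at an unadjusted p under 0.05 and 0 by DESeq2. The log2 fold changes lay between -0.26 for Lair1 and 0.30 for Pira2. All genes together gave 0% called, with 61 at an unadjusted p under 0.05 and 0 by DESeq2.

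Cell type markers differed between the GMP libraries. The 19 neutrophil granule and maturation genes summed to 12110 to 22111 CPM in KO, 903 to 46025 in HET and 12814 to 33444 in WT libraries. Of 17 tested, 0 were higher and 3 lower in KO against WT by edgeR, with a median log2 fold change of -2.68. The 12 basophil and mast cell markers summed to 3872, 2446 and 3075 CPM in KO libraries 6, 13 and 15. The sums were 281 to 1551 CPM in HET libraries and 544 to 1050 CPM in WT libraries, so that KO lay above all others. The defining basophil gene Mcpt8 went the other way, at 0 to 2.96 CPM in KO, 6.67 to 48.1 in HET and 3.23 to 29.4 in WT libraries. Of the list's 10 tested genes, 0 were higher and 0 lower in KO against WT by edgeR, with 6 at an unadjusted p under 0.05. The summed eosinophil markers were at 9299, 1993 and 17684 CPM in KO libraries 6, 13 and 15, and at 1099, 1957 and 1588 in WT libraries 2, 5 and 12. Of the defining eosinophil genes, Prg2 was at 1302 to 15882 CPM in KO and 579 to 1384 in WT libraries. Epx was at 3.89 to 97.8 CPM in KO and 72.7 to 97.9 in WT libraries. Of 9 eosinophil markers tested, 0 were higher and 2 lower in KO against WT by edgeR, beside 5 and 20 of all 12239 genes. The monocyte and macrophage sum was at 1613, 1952 and 4299 CPM in KO, and 1231, 1789 and 1694 in WT. Of that list's 17 tested genes, 0 were higher and 1 was lower in KO against WT by edgeR, with 6 at an unadjusted p under 0.05. Their median log2 fold change was -0.87, so the sum and the median gene went different ways. Synthetic spike-in RNA took 2.70%, 2.52% and 3.06% of reads in KO and 0.15% to 0.23% in WT. The part of these differences in the receptor values was not tested. The row spanning Lilr4b and Lilrb4a was at 21.15, 8.49 and 22.36 CPM in KO, 1.47 to 8.06 in HET and 3.23, 13.5 and 6.55 in WT libraries. KO and HET libraries did not overlap for it, but the log2 fold change of 2.10 (SE 0.64) had an edgeR adjusted p of 0.236. Over its 19 alternatives the value ran from 0.54, in the fit on spike-in share, to 2.53, and the adjusted p from 0.0468, by DESeq2, to 0.864; it passed in 1.

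MEP held the fewest reads of these genes. Lilra6 had 8 reads over the 4 KO libraries, 14 over the 7 HET libraries and 14 over the 3 WT libraries. Lilrb3 averaged 2.03 ± 0.767 CPM in KO, 2.09 ± 0.953 in HET and 2.99 ± 1.85 in WT libraries (SD, n = 4, 7 and 3). Lair1 averaged 1.79 ± 1.71, 1.80 ± 1.36 and 1.31 ± 1.17 CPM in the same order. All 3 genes overlapped between genotypes, and none passed the filter, so MEP gave no test of its own.

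Across populations the receptors had different places of highest level. In WT libraries Lilrb3 averaged 5.61 ± 2.24 CPM per kb in LSK, 1.24 ± 1.27 in GMP, 0.680 ± 0.144 in CMP and 0.668 ± 0.413 in MEP. Lair1 averaged 1.33 ± 0.179 CPM per kb in GMP, 0.487 ± 0.399 in LSK, 0.249 ± 0.0907 in CMP and 0.176 ± 0.157 in MEP. Lilra6 averaged 0.893 ± 1.15 in GMP, 0.755 ± 0.410 in LSK, 0.570 ± 0.604 in MEP and 0.404 ± 0.298 in CMP. For Lilra6 no neighbours in that order differed beyond their spread. LSK libraries were deposited apart from the others, and no test was made against them.

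Lair1 alone among the 3 members tested passed between WT populations. It was higher in GMP than in MEP by 3.10 (SE 0.96) on the log2 scale, with an edgeR adjusted p of 0.0405. None of the 3 passed the filter in MEP alone, where Lair1 had 11 reads over the 3 WT libraries. Lair1 entered the joint fit through its reads in other populations, so nothing further is read from the call. With each population scaled on its own, all 3 GMP libraries lay above all 3 MEP libraries, which were at 0, 2.26 and 1.68 CPM. The share of all genes that separate in this way was not counted, and nothing is read from the separation. The call of Lair1 between GMP and MEP was lost without any 1 of GMP WT 5, GMP WT 12, MEP WT 2, MEP WT 5 or MEP WT 12. It was also lost with RLE in place of TMM scaling. Of 11829 genes, 6.95% were called between these populations. GMP against CMP gave 2.70 (SE 0.91) for Lair1, with an edgeR adjusted p of 0.187; 0 of 3 members passed, 1 had an unadjusted p under 0.05 and DESeq2 called 0, beside 1.03% of all genes. MEP against CMP called 0 of 3 by edgeR, 0 at an unadjusted p under 0.05 and 0 by DESeq2, beside 3.1% of all genes. The difference between the KO effects in GMP and MEP was called for 0 of 3 members by edgeR, 0 at an unadjusted p under 0.05 and 0 by DESeq2, beside 0.414% of all genes.

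**Figure D4:**
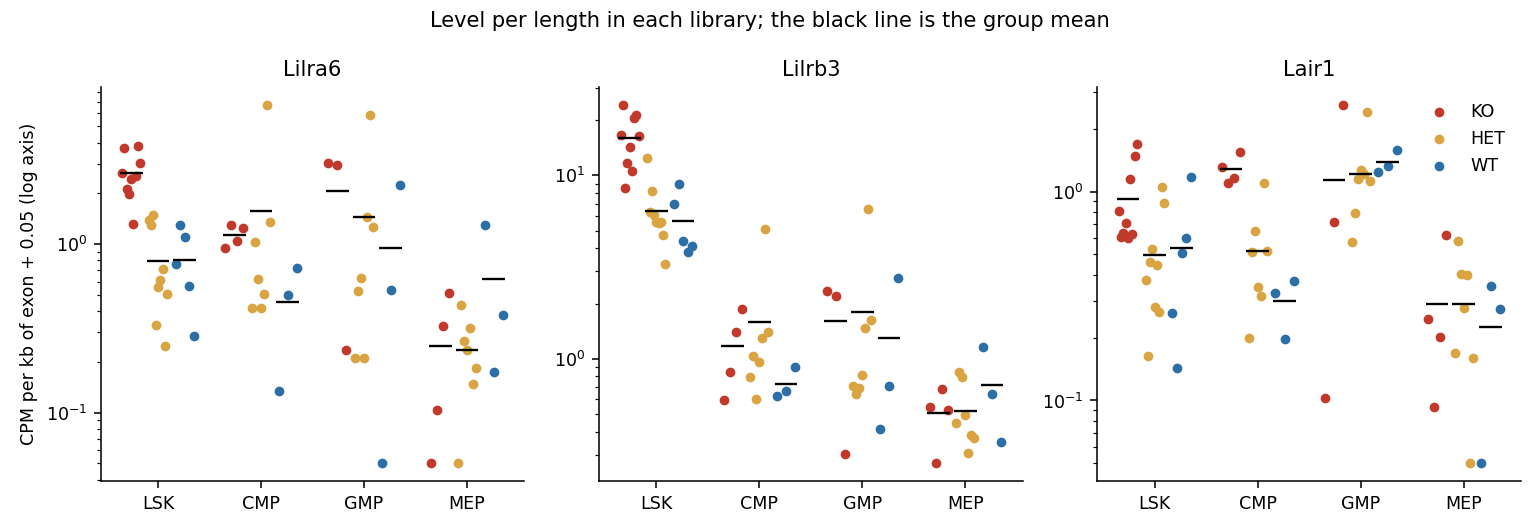
CPM per kilobase of exon plus 0.05, on a log axis, in each library of LSK, CMP, GMP and MEP for Lilra6, Lilrb3 and Lair1, with KO, HET and WT from left to right in each population and lines at group means. Lilrb3 is highest in LSK and higher still in LSK KO libraries, while Lair1 in WT libraries is highest in GMP.

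Of 17 listed neighbouring genes outside the immunoglobulin receptors, 11 were tested in LSK. The leukocyte receptor complex also holds housekeeping genes such as Cnot3, Leng8 and Tsen34. Of the 11 tested, 0 were higher and 0 lower in KO against WT by edgeR, with 0 at an unadjusted p under 0.05. Over all genes 9.53% were higher and 9.28% lower, and with so few neighbours nothing is read from these counts. Their median log2 fold change was 0.13, against 0.01 over all genes.

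Genes on a list of other inhibitory receptors with ITIMs changed in both directions in LSK KO cells. Whether each listed mouse protein carries an ITIM was not checked. Of 23 tested, 6 were higher and 1 was lower against WT, beside 9.53% and 9.28% of all genes, with a median log2 fold change of 0.41. Cd33, a sialic acid receptor, averaged 145 CPM in KO and 69.2 CPM in WT libraries, 1.06 (SE 0.15) higher on the log2 scale, with an adjusted p of 5.9e-05 by edgeR. Slamf6, a homophilic receptor of lymphoid cells, was at 16.1 CPM in KO and 4.83 CPM in WT libraries, and Pecam1 at 122 CPM in KO and 74.9 CPM in WT libraries. Btla, an inhibitory receptor of lymphocytes, fell, at 2.33 CPM in KO and 7.37 CPM in WT. In CMP, 3 of 16 were higher and 3 lower, beside 1.02% and 0.823% of all genes; Btla again fell, by 1.97 (SE 0.18) on the log2 scale.

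Activating receptors and their ITAM adaptors moved little in LSK. Of 22 tested, 1 was higher, beside 9.53% of all genes; it was Cd300lb, at 5.42 CPM in KO and 1.43 CPM in WT libraries. Fcer1g, the partner of PIR-A, and Tyrobp, both named here after their values were seen, had log2 fold changes of -0.46 (SE 0.47) and -0.05 (SE 0.20), which did not pass. In CMP, 1 of 19 was higher and 4 were lower, beside 1.02% and 0.823% of all genes, the lower ones led by Clec5a, Fcgr1 and Trem3, receptors of monocytes and neutrophils. Clec5a was at 47.2 CPM in KO and 145 CPM in WT CMP libraries.

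Some signalling genes downstream of these receptors were higher in LSK KO libraries. Of 33 tested, 9 were higher and 0 lower in KO against WT, beside 9.53% and 9.28% of all genes, with a median log2 fold change of 0.14. Pik3ap1, a phosphoinositide 3-kinase adaptor, was at 0.66 (SE 0.09), the kinase Syk at 0.43 (SE 0.09), and the inositol phosphatase Inpp5d at 0.39 (SE 0.09) on the log2 scale. Ptpn6, the phosphatase that PIR-B and LAIR1 recruit, was named after its value was seen and was at 0.25 (SE 0.06).

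Of 25 tested genes for reported ligands, 3 were higher and 1 was lower in LSK KO libraries against WT, with a median of -0.02. The share higher was near the 9.53% of all genes, so the count is no result about ligands. H2-T23, a non-classical MHC class I gene, averaged 84.6 CPM in KO and 41.1 CPM in WT libraries, 1.05 (SE 0.15) higher on the log2 scale, with an adjusted p of 2.9e-05 by edgeR. Fn1, encoding fibronectin, was at 104 CPM in KO and 45.0 CPM in WT libraries, and H2-M3 at 10.8 CPM in KO and 7.63 CPM in WT libraries. Colec12, a collagen-domain lectin, fell, at 4.64 CPM in KO and 26.2 CPM in WT. In CMP, Fn1 and H2-T23 were the 2 of 14 that were higher, beside 1.02% of all genes, at 2.26 (SE 0.36) and 1.02 (SE 0.25) on the log2 scale.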

How the data were processed

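The authors deposited whole-number read counts per gene for Smart-seq2 libraries; per the submitters' processing notes, these came from featureCounts on mm10. The sources used here do not give the annotation release, the strand setting or the read length. Row identifiers were matched to GENCODE M21 on GRCm38. From the counts, CPM were computed with TMM-scaled library sizes, leaving out spike-in rows. Genes were kept by filterByExpr (minimum count 10, minimum total 15). Each population was fitted with its 3 genotypes by edgeR's robust quasi-likelihood test, and CMP, GMP and MEP also in 1 joint model. P-values were adjusted by Benjamini-Hochberg over all genes of a fit, with a threshold of 0.05. The tools were R 4.3.3, edgeR 4.0.16, limma 3.58.1 and DESeq2 1.42.0. The procedure was tested on simulated data.

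The members and gene lists were chosen with earlier results of these data known. Of each list, the text names up to 4 genes with the smallest p among those past the threshold; defining markers of the gates and cell types are named as such, and others are said to be chosen after their values were seen. One gene that this rule would name is not reported here. For each receptor, the 3 genes with the highest Pearson r over LSK libraries are named. Alternatives were RLE size factors, no low-count filter, DESeq2, fewer groups in the fit, covariates, and each library left out in turn. Reads shared by near-identical genes may have been dropped or split by the counting. Intervals and read numbers cover counting error and spread between libraries only.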

Additional observations from a re-analysis of the deposited data

Results flagged for a closer look

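In 4 of 28 groups of 4 to 10 libraries examined, 1 library lay far from the rest; chance flags about 1 in 20 groups. All 4 values came from the HET libraries numbered 8. In CMP HET library 8, Lilra6 was at 20.2 CPM from 18 reads, with the other HET libraries at 1.11 to 3.96 CPM. In the same library Lilrb3 was at 22.46 CPM from 20 reads, with the others at 2.49 to 6.05 CPM. In GMP HET library 8, Pira2 was at 14.6 CPM from 5 reads, with the others at 0.736 to 2.60 CPM. There Lilrb3 was at 29.2 CPM from 10 reads, with the others at 2.63 to 7.05 CPM. The part of the low scaling factors of these libraries, 0.58 and 0.30, in these values was not tested.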

How the results depend on the processing

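In LSK the members were chosen on KO levels, so their calls there show nothing about stability; the log2 fold changes in KO against WT ran from 1.31 to 2.02 for Lilra6, 1.70 to 2.04 for Pira2 and 1.29 to 1.75 for Lilrb3 over the 30 alternatives. With 1 library left out, 3 to 3 members were past the threshold against WT and 3 to 4 against HET. In CMP the count of members called in KO against HET was 0 when only those 2 groups were fitted. It was 0 against WT and 0 against HET with the series number as a covariate, and 0 and 0 with the share of spike-in reads as a covariate, an alternative chosen after seeing the data. With 1 library left out it was 0 to 1 for both. The count between GMP and MEP in WT was 0 with RLE size factors and 0 to 1 with 1 library left out; HET libraries were not left out in the joint model. The cause was not tested. In all other comparisons 0 members passed with any 1 library left out.

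Same-numbered libraries of CMP, GMP and MEP carried the same genotype and series number. Their deviations had correlations above 0.1 in 26 of 40 pairs (lowest -0.45, median 0.18, highest 0.69). Libraries with different numbers were not compared, so this check cannot tell whether the numbers pair libraries. The main joint model treated all libraries as independent. With the number as a replicate block, 1 member passed between GMP and MEP, Lair1 at 3.16 with an edgeR adjusted p of 0.0334, and 840 genes passed in place of 822. Depth limits Lilra5, all receptors in MEP and the values of GMP, where single libraries held 0 to 101 reads of a tested member.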
